A study of Homo sapiens with 2 samples.

Results

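TGF-beta signalling was described through 10 genes: the ligands TGFB1 and TGFB2, the receptors TGFBR1 and TGFBR2, the signal transducers SMAD2, SMAD3 and SMAD4, and the inhibitors SMAD7, SKIL and PMEPA1. Members were all probe sets of the deposited table annotated to 1 of these symbols alone, which gave 36 of the 45253 probe sets with a single gene symbol. The cells were GFP-SAS, an established tongue squamous carcinoma line that carries green fluorescent protein, and cells of both groups were treated with an LNA/DNA antisense oligonucleotide at 25 nM for 24 h. The oligonucleotide was directed against miR-361-3p in the anti-miR group and against no target in the control group. Each group was measured on 1 array, so no difference can be set against variation between cultures and no p-value is given. The labels give no untreated group and do not state the level of miR-361-3p after treatment.

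TGF-beta ligands are secreted in a latent form and, once released, bind a type II receptor that phosphorylates a type I receptor. The type I receptor phosphorylates SMAD2 and SMAD3, which join SMAD4, enter the nucleus and regulate target genes. SMAD7 blocks the receptors, SKIL represses SMAD complexes on DNA and PMEPA1 holds SMAD2 and SMAD3 away from the receptors, and all 3 inhibitors are themselves induced by the pathway. In squamous epithelium the pathway is known for restraining proliferation and, in carcinoma cells, for promoting invasion.

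The targeted microRNA is shown first because it is what the treatment was aimed at, with its seed, bases 2 to 8, in capitals. Its mature sequence in RefSeq lies at chrX:85903641-85903663 (- strand) of GRCh38.p14.
hsa-miR-361-3p: uCCCCCAGgugugauucugauuu
Of the mature human microRNAs in that table, 1 had this seed, hsa-miR-361-3p itself. Target sites in transcripts were not analysed here.

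The promoter windows of SMAD2, SMAD3 and SMAD4 are shown because these transducers work in 1 complex and differed in opposite directions, as described below. Each is the RefSeq (GRCh38.p14) window from 250 bases before to 50 after the outermost start of the gene, on the gene's strand, with GC boxes (GGGCGG on either strand) in capitals. The windows lie at chr18:47930823-47931122 (- strand), chr15:67065352-67065651 (+ strand) and chr18:51029963-51030262 (+ strand).
SMAD2 promoter window: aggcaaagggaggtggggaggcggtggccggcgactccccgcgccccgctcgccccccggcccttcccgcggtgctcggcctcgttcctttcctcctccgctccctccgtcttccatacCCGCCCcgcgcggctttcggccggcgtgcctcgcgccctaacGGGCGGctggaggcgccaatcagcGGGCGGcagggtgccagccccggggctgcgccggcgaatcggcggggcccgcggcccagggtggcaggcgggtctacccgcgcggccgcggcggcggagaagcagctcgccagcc
SMAD3 promoter window: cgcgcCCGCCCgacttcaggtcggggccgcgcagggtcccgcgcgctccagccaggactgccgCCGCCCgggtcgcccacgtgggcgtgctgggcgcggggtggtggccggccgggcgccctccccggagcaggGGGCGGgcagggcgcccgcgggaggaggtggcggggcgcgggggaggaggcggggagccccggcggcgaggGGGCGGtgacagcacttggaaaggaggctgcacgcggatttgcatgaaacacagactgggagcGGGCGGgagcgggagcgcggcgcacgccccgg
SMAD4 promoter window: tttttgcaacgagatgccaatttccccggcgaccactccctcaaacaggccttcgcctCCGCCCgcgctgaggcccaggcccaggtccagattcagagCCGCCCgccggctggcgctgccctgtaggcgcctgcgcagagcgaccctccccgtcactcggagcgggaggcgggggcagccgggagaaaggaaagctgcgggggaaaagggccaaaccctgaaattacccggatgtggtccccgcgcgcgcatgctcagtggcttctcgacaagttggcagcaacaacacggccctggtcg
The SMAD2 window held 3 GC boxes, the SMAD3 window 5 and the SMAD4 window 2, and 45.0% of all 35116 windows held at least 1. The GC content was 78.7%, 80.3% and 66.7%, against a median of 58.7% over all windows. Of the outermost windows of the 10 genes, 5 held a GC box. The SMAD palindrome GTCTAGAC, which is its own reverse complement, was in 0 of the 28 windows of the 10 genes and in 0.202% of all windows. The SMAD-binding element CAGACA on either strand was in 5 of the 28, among them windows of TGFB2, TGFBR1, SMAD3 and PMEPA1, and in 16.9% of all windows. The AP-1 site TGACTCA on either strand was in 2 of the 28, 1 window each of TGFBR2 and SMAD3, and in 4.95% of all. These matches describe the letters of the windows and not binding.

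All values are log2 expression values made with RMA, and differences are the anti-miR array minus the control array. Probe sets below the median of both arrays (4.64 anti-miR, 4.63 control) were left out, and a gene's value was the mean of the probe sets retained. Of the 36 probe sets, 28 were retained, and every one of the 10 genes kept at least 1. Errors are the SD over probe sets of a gene, a technical spread within arrays that holds no variation between cultures. Over all genes the median difference was 0.13, and the quartiles were -0.21 and 0.33. Marker values are means over all probe sets of a gene, retained or not. Most epithelial markers with a value were high on both arrays. KRT18 stood at 11.59 and 11.79, EPCAM at 11.14 and 11.28 and KRT5 at 8.89 and 9.08 on the anti-miR and control arrays. CDH1 was lower at 6.31 and 6.53, and KRT14, at 3.87 and 3.63, did not reach the median. KRT17, KRT6A and TP63 of the same list had no value. Of the markers of other cell types, 1 of 8 fibroblast, 2 of 6 endothelial, 1 of 6 leukocyte and 4 of 6 skeletal muscle genes were retained, and the medians of these lists on the control array lay between 3.11 and 3.67.

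Type I receptor and receptor-regulated SMAD signals were lower after the anti-miR. Of the 10 genes, 3 were at least 1.5-fold lower, TGFBR1, SMAD2 and SMAD3, or 30.0%, against 14.2% of all 11272 genes. No member was 1.5-fold higher (0 of 10), against 8.23% of all genes. The background itself moves with centring: 928 genes were higher and 1602 lower, and 499 and 1951 once the median gene was set to 0. SMAD4, SMAD7, SKIL and TGFB1 had differences from 0.23 to 0.52, and TGFB2, TGFBR2 and PMEPA1 differences from -0.44 to -0.24. The median of the 10 genes was -0.24. Counted by probe set, 11 of 36 (30.6%) were at least 1.5-fold lower and 0 higher, against 9.87% lower and 5.04% higher among all probe sets with a single symbol. All 11 belonged to TGFBR1, TGFBR2, SMAD2 and SMAD3.

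**Figure D1:**
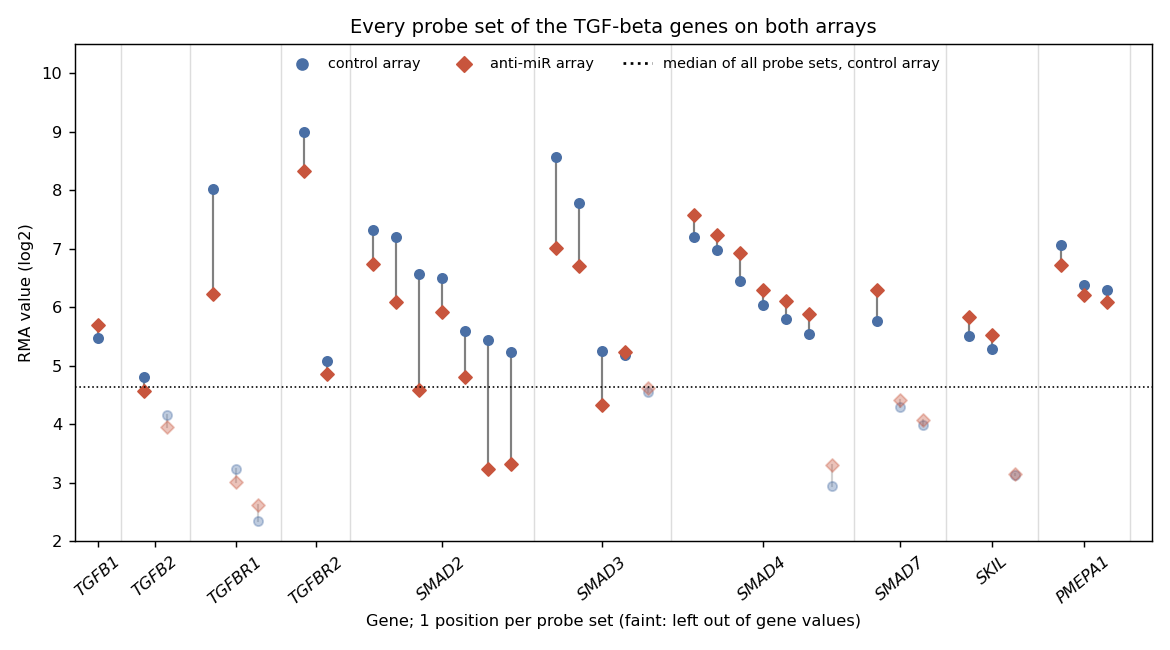
Log2 RMA value (vertical axis) of each of the 36 probe sets (1 position each, grouped by gene) on the control array (circles) and the anti-miR array (diamonds), joined by a line. Faint symbols are the 8 probe sets left out of gene values, and the dotted line is the control array's median of 4.63. All 7 SMAD2 probe sets are lower and all 7 SMAD4 probe sets higher on the anti-miR array.

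The ligands differed little. TGFB1, the main ligand in most tissues, had 1 probe set, at 5.70 after the anti-miR and 5.47 in the control. The difference of 0.23 was 0.10 above the median gene. TGFB2, a second ligand isoform, had probe sets at 4.56 against 4.80 and at 3.95 against 4.16, and the dimmer was left out of the gene value. Its gene difference was -0.24, and both of its probe sets lay on the same side of 0. Neither ligand came near 1.5-fold.

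The receptors were both lower, by unequal amounts. TGFBR1, the type I receptor kinase that phosphorylates SMAD2 and SMAD3, had a bright probe set at 6.23 after the anti-miR and 8.03 in the control. That is a difference of -1.80 or 3.48-fold, and 1.38% of all genes had a lower value. Its other 2 probe sets were dim and disagreed in sign, at 3.01 against 3.24 and at 2.61 against 2.34. The fold of TGFBR1 thus rests on 1 probe set, of the _s_at type, which can also read other genes. With the dim probe sets averaged in, the difference was -0.58 ± 1.08 (SD over 3 probe sets), just short of 1.5-fold. TGFBR2, the type II receptor that binds the ligand, had probe sets at 8.33 against 8.99 and at 4.85 against 5.08. The brighter was 1.58-fold lower and the dimmer 1.17-fold lower, and the gene difference was -0.44 ± 0.31 (SD over 2 probe sets), within 1.5-fold. Taking the brighter alone put TGFBR2 at -0.66, past 1.5-fold, and both of its probe sets are _s_at.

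SMAD2 was lower in every probe set. It carries the signal of TGF-beta and activins to the nucleus, and its gene value was 4.95 after the anti-miR and 6.26 in the control. The difference was -1.31 ± 0.70 (SD over 7 probe sets), or 2.48-fold, and 3.98% of all genes had a lower value. All 7 probe sets were lower on the anti-miR array, and the sizes varied widely among them. The 3 with the largest differences stood at 3.24 against 5.43, 4.59 against 6.56 and 3.31 against 5.24, and were 3.80-fold to 4.57-fold lower. On the anti-miR array all 3 lay below that array's median of 4.64, so they were retained through the control array alone. With the filter applied to the mean of both arrays, 5 SMAD2 probe sets were left and the difference was -1.01. In the middle were probe sets at 6.08 against 7.20 and at 4.80 against 5.60. The smallest differences were at 5.92 against 6.50, 1.503-fold lower, and at 6.73 against 7.32, 1.499-fold lower. The probe set with the highest level thus showed the smallest difference, and taken alone it left SMAD2 just short of 1.5-fold at -0.58. Agreement of many probe sets is common on these arrays: among 186 genes that retained 7 probe sets or more, every one was lower in 60 (32.3%) and higher in 55 (29.6%).

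SMAD3 split by probe set. SMAD3, the close relative of SMAD2 that binds DNA directly, had probe sets at 7.00 against 8.58, 6.70 against 7.79 and 4.33 against 5.26 after the anti-miR and in the control. The probe set at 4.33 was retained through the control array alone, as it lay below the anti-miR array's median. These probe sets were 2.97-fold, 2.12-fold and 1.90-fold lower, in the order given. The remaining 2 probe sets did not share this, at 5.24 against 5.19 and at 4.62 against 4.55, the latter left out of the gene value. The gene value was 5.82 against 6.70, a difference of -0.88 ± 0.68 (SD over 4 probe sets) or 1.84-fold. The brightest probe set, an _s_at type, gave -1.57. Without _s_at and _x_at probe sets the gene difference was -0.52, which is within 1.5-fold. Which transcripts each probe set reads was not analysed here.

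SMAD4 went the other way. SMAD4 is the partner shared by TGF-beta and bone morphogenetic protein (BMP) signalling, and its gene value was 6.67 after the anti-miR and 6.34 in the control. The difference was 0.34 ± 0.08 (SD over 6 probe sets), or 1.26-fold, and all 7 probe sets were higher, the retained ones by 0.25 to 0.48. The value was 0.21 above the median gene, and 24.7% of all genes had a higher value. Among 397 genes that retained 6 probe sets or more, 123 (31.0%) were also higher in every one. The gene difference of SMAD4 exceeded that of SMAD2 by 1.65 and that of SMAD3 by 1.22 on the log2 scale, and no SMAD4 probe set overlapped the range of SMAD2. The poly-A spikes that enter the RNA ahead of labelling were higher too, by 0.32 ± 0.19 (SD over 12 spike probe sets), and their part in the values of SMAD4, SMAD7, SKIL and TGFB1 was not tested.

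The inhibitors differed by less than 1.5-fold, in both directions. SMAD7, which recruits ubiquitin ligases to the type I receptor, stood at 6.29 against 5.76 in its retained probe set, 1.44-fold higher with a difference of 0.52. Its other 2 probe sets lay below the median, at 4.42 against 4.29 and at 4.06 against 3.98, and with them the difference was 0.24 ± 0.24 (SD over 3 probe sets). SKIL, the corepressor also called SnoN, had retained probe sets at 5.52 against 5.29 and at 5.83 against 5.51, and a difference of 0.27 ± 0.06 (SD over 2 probe sets). Its remaining probe set, at 3.15 against 3.13, was left out. PMEPA1, a membrane protein that binds SMAD2 and SMAD3, was lower in all 3 probe sets, at 6.73 against 7.06, 6.09 against 6.30 and 6.21 against 6.38. Its gene difference was -0.24 ± 0.08 (SD over 3 probe sets). The differences of the inhibitors thus had both signs, all within 1.5-fold and on 1 array per group.

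**Figure D2:**
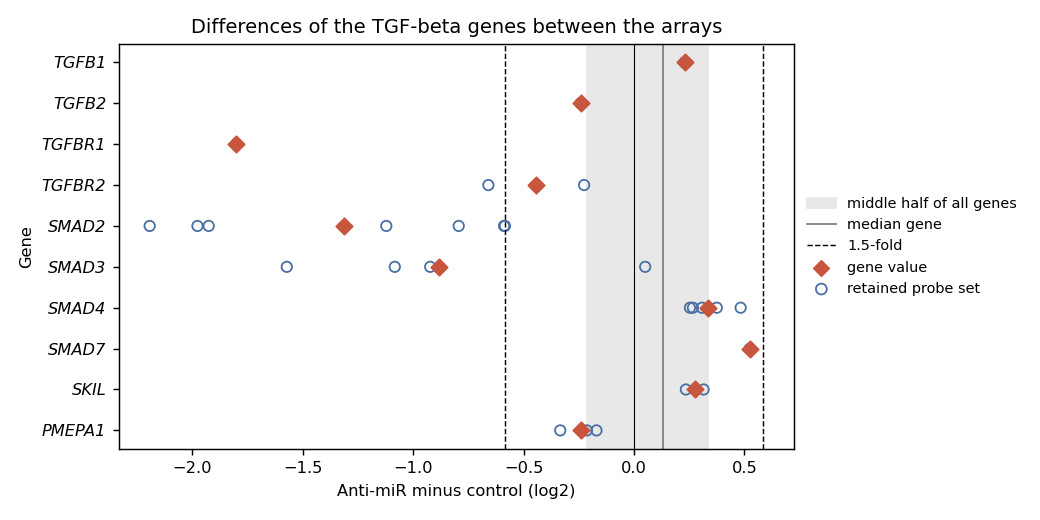
Anti-miR minus control difference (log2, horizontal axis) of the 10 genes (diamonds) and their retained probe sets (open circles). The grey band runs from the lower to the upper quartile of all genes (-0.21 to 0.33), the grey line is the median gene at 0.13, and dashed lines mark 1.5-fold. TGFBR1 at -1.80, SMAD2 at -1.31 and SMAD3 at -0.88 lie past the lower line, and no gene lies past the upper one.

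No detection call came with the values, so signal over background was read against the 23 nonspecific control probe sets. These reached 7.16 (anti-miR) and 6.87 (control) in the class richest in GC, and the other 22 reached 5.14 and 4.81. On the anti-miR array 3 of the 36 probe sets exceeded the highest control, the brighter one of TGFBR2 and 2 of SMAD4, and on the control array 9 did. Those 3 exceeded it on both arrays, against 18.1% of all probe sets with a single symbol. No SMAD2, SMAD3 or TGFBR1 probe set exceeded it on the anti-miR array. Whether their anti-miR signal exceeds background is therefore not known, and their folds carry no exact size. Above the second highest control were 21 probe sets after the anti-miR and 27 in the control. The 21 included some but not all probe sets of TGFBR1, SMAD2 and SMAD3. For counts on a single array, the share among all probe sets was not computed.

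The 10 genes also differ in genomic span, the length from first to last transcribed base in RefSeq, and this moved with the differences. SMAD3 (130 kb) and SMAD2 (122 kb) are the longest, and TGFB1 (23.6 kb), SMAD7 (31.1 kb) and SKIL (39.1 kb) the shortest. Across the 10 genes Spearman's rho of difference and span was -0.61, and across the 11261 genes with a span it was -0.49. These are descriptions over genes of the same 2 arrays, which are not independent replicates. Among genes with a span within 1.25-fold of that of SMAD2, 39.0% of 896 were at least 1.5-fold lower, with a median of -0.38. For SMAD3 this was 42.4% of 854, with a median of -0.43. TGFBR1 has a span of 50.5 kb, and of 1416 genes within 1.25-fold of it 14.0% were 1.5-fold lower, with a median of 0.01. SMAD4 has a span of 54.8 kb and a difference of 0.34. The part of span in the differences of SMAD2, SMAD3, TGFBR1 and the other members was not tested, and the value of TGFBR1 rests on 1 probe set.

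**Figure D3:**
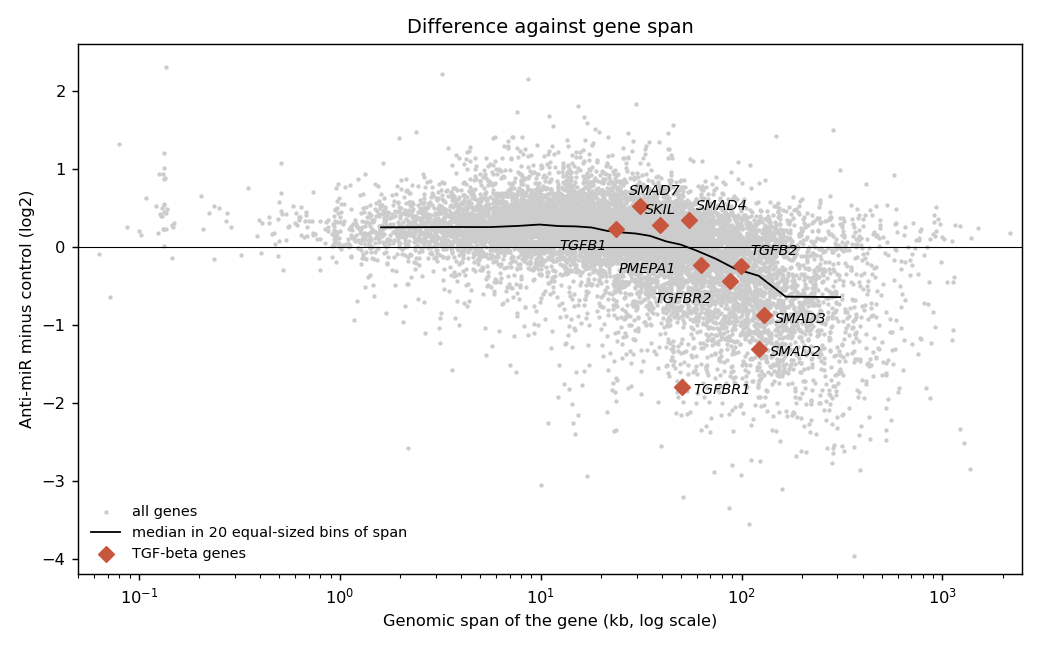
Anti-miR minus control difference (log2) against the genomic span of the gene (kb, log scale) for 11261 genes (grey points), their median in 20 bins of equal size (line) and the 10 TGF-beta genes (diamonds). SMAD2 and SMAD3, the longest of the 10, and TGFBR1 lie lowest, and the shorter TGFB1, SMAD7 and SKIL lie above 0.

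The wider pathway was followed through 9 lists with 117 genes, of which 89 had a retained probe set. Of these 89, 24 (27.0%) were at least 1.5-fold lower and 6 (6.74%) higher, against the 14.2% and 8.23% of all genes, and their median was -0.14. Their median span was 39.6 kb, against 27.6 kb for all genes. Set against the median gene at 0.13, the medians of the latency list (0.08) and the target list (0.04) given below lie on the lower side. Of the 22 genes named below that passed 1.5-fold, 5 (USP9X, FN1, ID1, TOB1 and ID3) had a gene value above the highest nonspecific control on the array where they were lower. The folds of the other 17 carry no exact size.

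Among 7 other ligands with values, 1 was higher and 0 lower by 1.5-fold, with a list median of -0.06. BMP4, a ligand of the BMP branch, stood at 6.58 against 5.83, 1.69-fold higher (1 probe set). Centred on the median gene, 1 of the 7 ligands was lower, INHBB, a chain of activins and inhibins, at -0.65, a gene named after its values were seen. Of the 7 genes for latency and activation, 1 was lower and 0 higher, and the median was 0.08. That gene was ITGAV, the integrin alpha V chain that helps release TGF-beta from its latent complex, at 4.27 against 6.63, 5.13-fold lower in 2 retained probe sets. The lower value was below the array's median. Both retained probe sets are of the _s_at or _x_at type, which can read other genes, and with all 5 of its probe sets ITGAV differed by -1.28.

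The other receptors and co-receptors had 2 of 8 lower and 0 higher, with a median of -0.24. BMPR2, the type II receptor for BMPs, stood at 4.19 against 5.57 and was 2.61-fold lower (-1.39 ± 0.29, SD over 3 probe sets). The lower value was below its array's median, and with the filter at the 75th percentile BMPR2 had no probe set. CD109, a co-receptor that dampens TGF-beta signalling, was 1.70-fold lower as a mean of probe sets that ranged from -1.83 to -0.17, and with their median it was within 1.5-fold at -0.31. Neither of the 2 other SMADs with values passed 1.5-fold. SMAD1, a transducer of BMP signals, differed by -0.46, or -0.59 and past 1.5-fold when centred on the median gene, and SMAD5, which has the same role, by 0.12.

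Regulators and anchors of SMADs had 7 of 21 lower (33.3%) and 1 higher, with a median of -0.37 and a median span of 75.8 kb. ZFYVE16, an endosomal anchor, stood at 3.69 against 5.51 in 1 retained probe set, 3.53-fold lower with the lower value below the array's median, and differed by -0.62 with all 3. USP9X, a deubiquitinase that acts on SMAD4, stood at 7.27 against 8.75, 2.79-fold lower (-1.48 ± 0.23, SD over 4 probe sets). NEDD4L, a ubiquitin ligase of SMAD2 and SMAD3, stood at 6.39 against 7.41 and was lower in all 7 probe sets (-1.02 ± 0.15). TOB1, an antiproliferative protein that binds SMADs, was the gene in the other direction, at 8.95 against 7.99 and 1.94-fold higher (2 probe sets, both _s_at). The lower genes of the list included a ubiquitin ligase of SMADs, NEDD4L, as well as USP9X, which preserves SMAD activity. Not all 7 lower genes are named here, so the roles of this pair do not describe the list.

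The list of DNA-binding partners and coactivators had 6 of 10 genes lower (60.0%), with 0 higher and a median of -0.59. It was also the list of longest genes, with a median span of 99.2 kb. FOXO1 and FOXO3, forkhead factors that pair with SMADs at the CDKN1A promoter, were 2.69-fold and 2.14-fold lower. RUNX1 and RUNX2, Runt factors that bind SMADs, were 1.98-fold and 1.61-fold lower. With no filter on dim probe sets the count was 2 of 12 (16.7%), FOXO1 and FOXO3, against 7 of 22 (31.8%) for the regulators. The list median was -0.19. At that setting 1345 of all 18239 genes were at least 1.5-fold lower, so the background share changed as well. RUNX1 and RUNX2 then differed by -0.41 and -0.23. Of 7 genes of non-SMAD signalling, 2 were lower and 1 higher, with a median of -0.40. MAP3K7, the kinase TAK1, was lower in all 6 retained probe sets (-0.80 ± 0.08), and its partner TAB3 was 2.36-fold lower but -0.40 with all 5 probe sets. TRAF6, the ligase that activates TAK1, was 1.56-fold higher (4.90 against 4.26, 1 probe set). The lower of these values, in the control, was under the median probe set of its array, and centred on the median gene it differed by 0.51, within 1.5-fold.

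Genes that TGF-beta is known to induce did not share a direction. Of 22 with values, 5 were lower (22.7%) and 1 higher (4.55%), and the median was 0.04. COL4A1, a basement membrane collagen, stood at 6.48 against 7.50 and was 2.03-fold lower. FN1, fibronectin, stood at 7.98 against 8.88 and was 1.86-fold lower, its 8 probe sets spanning -1.15 to 0.35. HMGA2, a chromatin factor of mesenchymal transition, was 1.90-fold lower as a mean of 5 probe sets between -2.07 and -0.07. CDKN2B, the cell cycle inhibitor p15 and a classical target of SMAD complexes, was 2.20-fold higher at 6.67 against 5.53 (1.14 ± 0.27, SD over 2 probe sets). CDKN1A, the inhibitor p21, differed by 0.03. CCN2 had no retained probe set and differed by 0.07 over all 3.

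Genes induced by BMPs or repressed by TGF-beta were split as well, with 2 of 5 higher, 1 lower and a median of 0.15. ID2, an inhibitor of basic helix-loop-helix factors, was 2.78-fold higher at 6.70 against 5.22 (1 probe set, _s_at or _x_at). ID3 was 1.51-fold higher (0.59 ± 0.06, SD over 3 probe sets), but within 1.5-fold at 0.56 with the median of its probe sets and at 0.46 when centred on the median gene. ID1 was 1.62-fold lower (-0.70 ± 0.09, SD over 3 probe sets). ID1, ID2 and ID3 are all classical BMP targets.

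**Figure D4:**
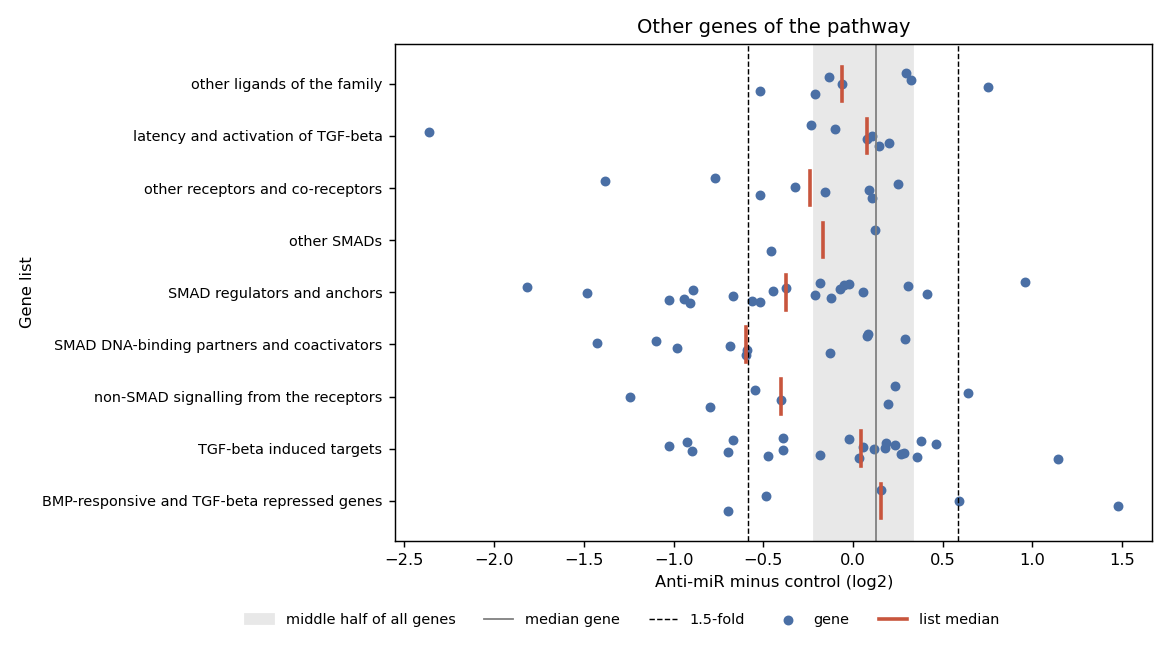
Anti-miR minus control difference (log2, horizontal axis) of the genes with values in 9 lists of the pathway (points), with each list's median (vertical bar). The band is the range between the quartiles of all genes, the grey line the median gene at 0.13, and dashed lines mark 1.5-fold. The partner and coactivator list has a median of -0.59 (-0.19 with no filter on dim probe sets), and the target list a median of 0.04.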

How the data were processed

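The deposited table holds log2 values per probe set, deposited after RMA as the submitters' processing notes name it, from 10 ng of total RNA labelled with a 3' expression kit, per the labels' protocols. No source used here gives the version of RMA, its software or which arrays entered it. Of 49386 probe sets, 93 controls, 1327 with several symbols and 2800 with none were left out of gene values. Symbols came from the platform annotation, and 45172 of 45253 were updated by Entrez ID through RefSeq (GRCh38.p14). The filter kept 24127 probe sets of 11272 genes. There was 1 array per group, so no test was made. Gene calculations were tested on simulated data with planted changes larger than 1.5-fold. That checks the code and not the precision of the differences given here. Precision is limited by the number of arrays. The 10 genes and the lists were chosen with earlier results of these data known. Named were all 10 genes, up to 4 genes past 1.5-fold with the largest difference from each list or, with none past it, its largest differences, and CCN2 and CDKN1A in any case. Alternatives concerned the filter, the probe set summary, centring, probe set types and a 2-fold threshold. Tools were pandas 2.3.3 and numpy 2.4.6 under Python 3.11.15, with statsmodels 0.14.6 for lowess, scipy 1.17.1 for correlations and matplotlib 3.10.9 for plots.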

Additional observations from a re-analysis of the deposited data

Results flagged for a closer look

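A signal outside the gene comparison was higher on the anti-miR array. The poly-A spike control probe sets differed by a mean of 0.32 ± 0.19 (SD over 12 probe sets), close to the difference of SMAD4 (0.34). The hybridization controls, added after labelling, differed by 0.09 ± 0.10 (SD over 9 probe sets).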

How the results depend on the processing

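No paired analysis was possible because of the single array in each group, and no array could be left out. None of the 10 genes changed sign under any alternative that gave it a value, and none was 1.5-fold higher. Sizes did move. SMAD2 was at -1.01 with the filter on the mean of both arrays (5 probe sets) and at -0.85 at the 75th percentile (2 probe sets). SMAD3 was at -1.33 at the 75th percentile (2 probe sets), and TGFBR1 at -0.58 with no filter. Further moves of SMAD2 and SMAD3 are given with each gene above. Of 3 genes 1.5-fold lower, 1 (SMAD2) remained without _s_at and _x_at probe sets, where TGFBR1 had none retained. With plain _at probe sets it was 0 of the 1 gene measured, with no filter 2 of 10 and with the filter at the 75th percentile 4 of 6. The probe set of highest level again gave 3, with TGFBR2 in place of SMAD2. The background of lower genes was 1371 of 9641 without _s_at and _x_at, and 1345 of 18239 with no filter. It was 1233 of 6552 at the 75th percentile and 1638 of 11272 with the probe set of highest level. Of 11 probe sets past 1.5-fold, 6 were left without _s_at and _x_at, 5 at the 75th percentile, 0 with plain _at and 7 at 2-fold. For these alternatives the share among all probe sets was not computed. Over all genes, 928 higher and 1602 lower became 499 and 547 higher when centred on the median and on a lowess trend (fraction 0.3), 318 and 507 among 3438 genes with plain _at probe sets, and 139 and 787 at 2-fold. List medians moved by more than the pooled SD between probe sets (0.29) in these cases. With no filter the partner list was at -0.19 and the non-SMAD list at -0.090. At the 75th percentile the targets were at -0.30 (14 genes), the ligands at 0.75 (1 gene) and the receptors at -0.89 (2 genes). With plain _at probe sets the ligands were at -0.52 (1 gene). Without _s_at and _x_at, the partners were at -0.13 and the BMP-responsive list at -0.15, the latter over 4 genes, without ID2. The last alternative, and leaving out each gene's most different probe set, were added after seeing the data. List counts moved too. Centred on the median gene, lower genes went from 7 to 9 of the regulators, from 0 to 1 each of the other SMADs and the other ligands, from 2 to 3 each of the other receptors and the non-SMAD list, from 5 to 6 of the targets and from 1 to 2 of the BMP-responsive list, and higher genes from 1 to 0 of the non-SMAD list and from 2 to 1 of the BMP-responsive list. Without _s_at and _x_at, the latency list had 0 lower, the partners and the targets 4 each, the regulators 0 higher and the BMP-responsive list 1. Beyond the probe sets and genes that each alternative let in, the cause was not tested. Probe set counts were not computed with a lowess trend.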
